A study of Oryctolagus cuniculus with 9 samples.

Results

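The genes described here are those that the deposited annotation of the rabbit genome assigns to 3 KEGG pathways: the citrate (TCA) cycle, the degradation of valine, leucine and isoleucine, and the degradation of fatty acids. Every row of the deposited table whose pathway column held 1 of these names was taken, leaving out the 4 succinate dehydrogenase genes SDHA, SDHB, SDHC and SDHD. This gave 149 of 20525 genes, of which 134 had enough counts to be tested. Some belonged to more than 1 pathway: 40 carried the citrate cycle term, 78 the branched-chain term and 53 the fatty acid term.

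These pathways meet in the mitochondrion. Beta-oxidation shortens fatty acids to acetyl-CoA, the breakdown of branched-chain amino acids yields acetyl-CoA and precursors of succinyl-CoA, and the citrate cycle oxidises these products and passes electrons to the respiratory chain. Long-chain fatty acids are first activated by acyl-CoA synthetases and carried in by the carnitine shuttle, whose first enzyme CPT1 exists in liver, muscle and brain isoforms. Skeletal muscle, which the vocal fold contains beneath its mucosa, is among the tissues richest in these enzymes.

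Polyadenylated RNA of rabbit vocal folds was sequenced in 9 libraries, 3 for each of 3 groups. The groups were normal vocal folds without injury, injured folds left untreated (called control in the series' design text), and injured folds given a hydrogel called SOT in the labels, which do not spell the name out. Both injured groups were sampled 1 week after the injury. The labels give no strain, sex or age, and do not say that libraries of a group came from separate animals, so each p-value measures only the spread among these samples, part or all of which may be technical.

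The libraries held 44755718 to 50338111 counts each, so that 3 counts corresponded to 0.0557 to 0.0692 CPM, the library-size-normalised count from edgeR. The cell type label names histiocytes and the tissue label the vocal fold. The 13 macrophage and neutrophil genes found in the table summed to 409 to 846 CPM in the normal, 4610 to 6729 in the untreated and 1402 to 4135 in the SOT libraries. The 17 skeletal muscle genes found in the table, of 22 listed, summed to 27690 to 34310 CPM in the normal libraries, and cartilage, gland and epithelial genes were also present, so the libraries were read as whole tissue. In bulk tissue, fewer cells of a type and less RNA per cell cannot be told apart.

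The pathway column did not hold enzymes alone. By the gene descriptions in the table, 99 members were enzymes with a gene symbol (96 tested), 23 were further copies or parts of such enzymes known only by a locus number (18 tested) and 27 were described as another protein (20 tested). The last class included the formins FHOD1 and FHOD3, the zinc finger protein ZMIZ1, the iron regulatory protein IREB2 and 7 variable segments of the T cell receptor gamma chain. In untreated against normal folds, 4 of the 96 enzymes with a symbol rose and 48 fell. Of the 20 other proteins 1 fell, RPAP3, a chaperone adaptor of RNA polymerase II (log2 fold change -0.31, adjusted p = 0.0426, highest 0.151 with 1 library left out). Of the 18 locus copies 2 fell, LOC100354715, a fumarate hydratase copy (log2 fold change -1.47, adjusted p = 0.0297), and LOC100358789, a dihydrolipoyl dehydrogenase copy (-0.88, adjusted p = 0.0182), both uncertain since they may share reads with FH and DLD. Neither copy passed without normal replicate 1 or untreated replicate 2 or 3, and the first also not without normal replicate 2 or 3.

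Most of the oxidation enzymes that changed after injury were lower. Of the 134 members tested, 51 fell, 4 rose and 79 did not pass in untreated against normal folds (edgeR's quasi-likelihood test, Benjamini-Hochberg adjusted p under 0.05 over all 17344 genes tested). Of all genes tested, 32.8% passed in this comparison, 17.7% higher and 15.1% lower, whereas 38.1% of the members fell. The median log2 fold change was -0.51 over the members and -0.02 over all genes. By pathway term, 21 of 38 citrate cycle genes fell and 1 rose, 26 of 68 branched-chain genes fell and 2 rose, and 15 of 50 fatty acid genes fell and 1 rose. Leaving out untreated replicate 2 lowered the number of fallen members to 33, and leaving out untreated replicate 3 lowered it to 31. The branched-chain count was then 16 and 14. Over all genes, 5692 passed in either direction with all libraries, and 3145 to 6026 with 1 library left out. Of the 51 fallen members, 31 passed whichever of the 9 libraries was left out.

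**Figure D1:**
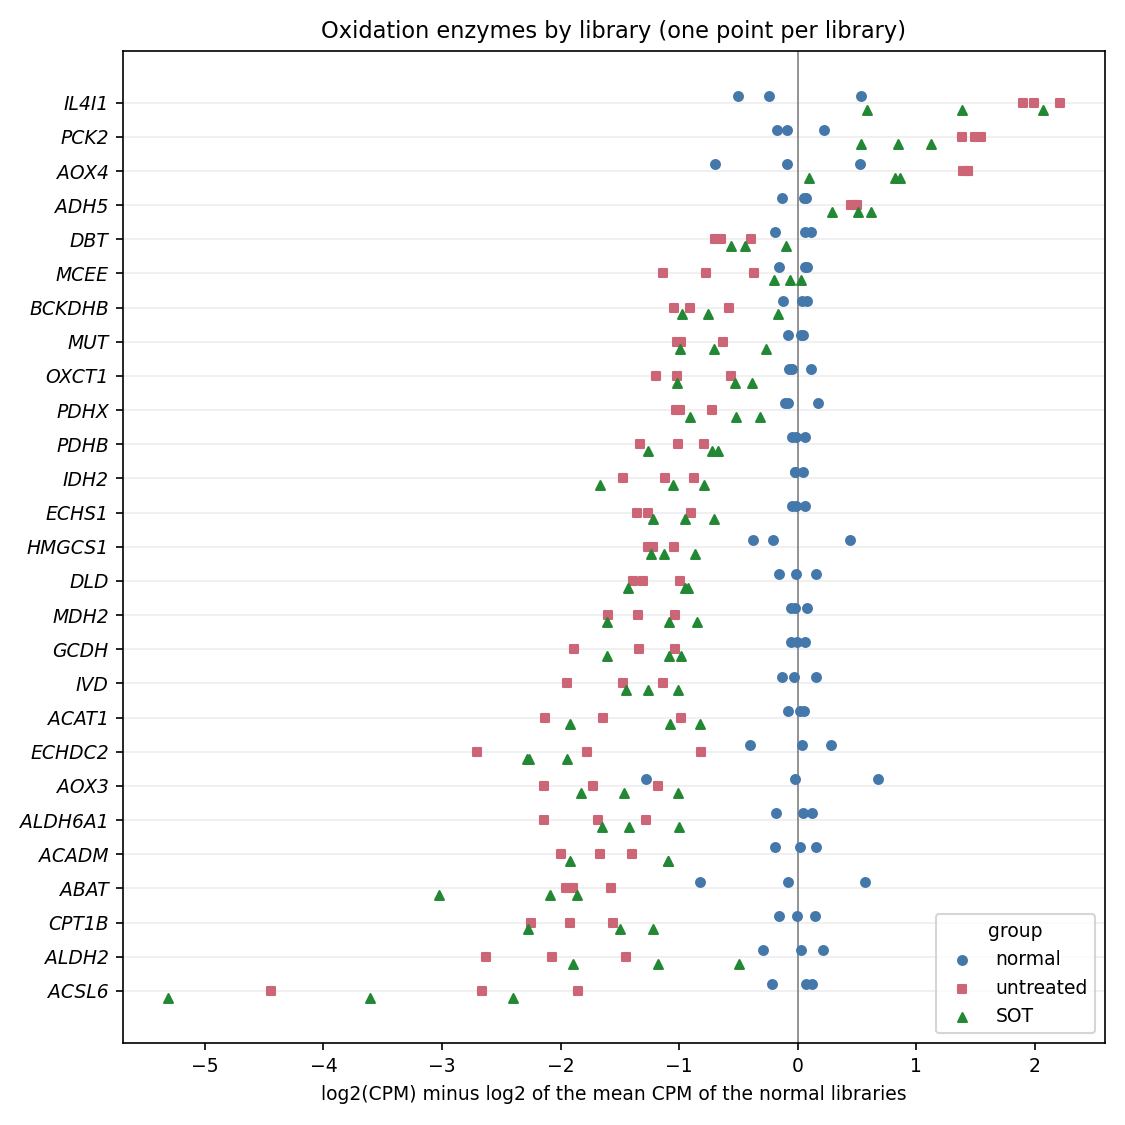
Level of 27 enzymes in each library, as log2 CPM minus the log2 of the mean CPM of the normal libraries. The genes are among those with the largest called change in each role, with all that rose, in untreated against normal folds. Circles are normal, squares untreated and triangles SOT libraries, 3 of each. PCK2, with 46.9 to 52.3 CPM in the untreated and 15.9 to 20.9 in the normal libraries, stands on the right, and ACSL6 on the left.

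Of 18 genes grouped as the citrate cycle core, 12 fell, with a median log2 fold change of -0.65. The group also holds the cytosolic enzymes ACO1, IDH1, MDH1 and ACLY, of which MDH1 is among those that fell. MDH2 is the mitochondrial malate dehydrogenase that regenerates oxaloacetate, and stood at 425, 415 and 457 CPM in the normal, 212, 142 and 170 in the untreated and 240, 141 and 203 in the SOT libraries. Its untreated libraries all lay below the normal ones, with a log2 fold change of -1.31 ± 0.21 (SE; adjusted p = 0.00336). IDH2, the mitochondrial NADP-dependent isocitrate dehydrogenase, had 647, 646 and 677 CPM in normal and 359, 237 and 303 in untreated folds. Its log2 fold change was -1.13 ± 0.23 (adjusted p = 0.00845). In MDH2 and IDH2 untreated replicate 2 was the lowest untreated library, and both calls held in each fit without 1 library.

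CS, the citrate synthase that brings acetyl-CoA into the cycle, stood at 540, 554 and 577 CPM in normal, 426, 365 and 378 in untreated and 415, 344 and 435 in SOT libraries. Both injured groups lay below the normal one, and CS fell by 0.52 ± 0.13 on the log2 scale in untreated folds (adjusted p = 0.0169), a call lost without untreated replicate 2 or 3 (highest adjusted p 0.0735). OGDH, the first component of the 2-oxoglutarate dehydrogenase complex, had 449, 476 and 344 CPM in normal and 263, 209 and 235 in untreated libraries, a log2 fold change of -0.84 ± 0.17 (adjusted p = 0.00684). SUCLA2, the ADP-forming subunit of succinyl-CoA synthetase, went from 139 to 150 CPM in normal to 99.8 to 112 in untreated libraries, with a log2 fold change of -0.46 (adjusted p = 0.0406). That call was lost when any single normal or untreated library was left out (highest adjusted p 0.128).

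Core genes that did not pass included the cytosolic enzymes IDH1, ACO1 and ACLY. ACO1, the cytosolic aconitase that also serves as an iron regulatory protein, had 71.8, 68.2 and 91.6 CPM in normal and 130, 143 and 135 in untreated libraries. These values did not overlap, but the adjusted p was 0.0509 (log2 fold change 0.82 ± 0.28). ACO1 passed as higher without SOT replicate 1 or without SOT replicate 3. IDH1, the cytosolic and peroxisomal NADP-dependent isocitrate dehydrogenase, had a log2 fold change of 0.13 ± 0.15 (adjusted p = 0.528), and ACLY, which splits citrate for lipid synthesis, 0.25 ± 0.13 (adjusted p = 0.179). ACLY passed as higher without normal replicate 3. MDH1, the cytosolic malate dehydrogenase, did fall, from 381 to 443 CPM in normal to 156 to 224 in untreated libraries (log2 fold change -1.12, adjusted p = 0.00506).

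Among the genes of pyruvate entry and of oxaloacetate supply and withdrawal, 5 of 7 tested fell and 1, PCK2, rose. DLD, the dihydrolipoyl dehydrogenase shared by the pyruvate, 2-oxoglutarate and branched-chain complexes, had 183, 162 and 147 CPM in normal and 82.3, 66.4 and 62.8 in untreated libraries. It fell by 1.22 ± 0.17 on the log2 scale (adjusted p = 0.00199), with no overlap of the groups. The other subunits of the pyruvate dehydrogenase complex fell as well, with log2 fold changes of -1.03 for PDHB, -1.01 for PDHA1 and -0.70 for DLAT. PDHX, which holds DLD in that complex, had 52.0 to 63.3 CPM in normal and 27.6 to 34.0 in untreated libraries (log2 fold change -0.91, adjusted p = 0.00562), and is counted apart from these 7. PC, the pyruvate carboxylase that replenishes oxaloacetate, fell by 0.73 on the log2 scale (adjusted p = 0.0462). The call of PC was lost without any 1 normal library, untreated replicate 2 or 3, or SOT replicate 1.

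PCK2, the mitochondrial phosphoenolpyruvate carboxykinase that withdraws oxaloacetate from the cycle, had the smallest p of the members that rose. It had 20.9, 15.9 and 16.8 CPM in normal, 46.9, 52.3 and 50.5 in untreated and 39.0, 32.1 and 25.9 in SOT libraries. The 3 groups did not overlap, and the SOT libraries lay between the other groups. In untreated against normal folds PCK2 rose by 1.48 ± 0.17 on the log2 scale, a fold of 2.79 (adjusted p = 0.000985), and this call held in each fit without 1 library. Its cytosolic counterpart PCK1 was nearly absent, with 0.22 to 0.576 CPM in normal libraries and 0, 0.0637 and 0 in untreated libraries, and did not pass (adjusted p = 0.107).

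Branched-chain amino acids are first transaminated by BCAT1 or BCAT2 and then irreversibly decarboxylated by the branched-chain complex of BCKDHA, BCKDHB, DBT and DLD. BCAT1 was at or near 0 in each library (0 to 0.648 CPM) and was not tested. The mitochondrial BCAT2 had 62.3 to 72.8 CPM in normal and 54.2 to 60.0 in untreated libraries, with no overlap and without passing (adjusted p = 0.12). Of the complex, BCKDHB had 43.9, 39.0 and 44.9 CPM in normal and 28.6, 20.8 and 22.7 in untreated libraries (log2 fold change -0.83 ± 0.22, adjusted p = 0.0205). DBT, its lipoylated core, fell by 0.57 ± 0.15 on the log2 scale (adjusted p = 0.0234). Both calls were lost without normal replicate 1, untreated replicate 2 or untreated replicate 3, and that of DBT also without normal replicate 3. BCKDHA, the catalytic E1 alpha subunit, did not pass, with a log2 fold change of -0.30 ± 0.21 (adjusted p = 0.311).

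IL4I1, a secreted L-amino acid oxidase of antigen-presenting cells that the annotation lists with this pathway, moved the other way at a low level. It had 0.369, 0.308 and 0.633 CPM in normal and 2.03, 1.74 and 1.63 in untreated libraries. The groups did not overlap, and the log2 fold change was 2.04 ± 0.47 (adjusted p = 0.0131). The 13 macrophage and neutrophil genes all rose in the same comparison, MRC1 narrowly (adjusted p = 0.0437). The call of MRC1 was lost when any 1 normal or untreated library was left out. The part of these 13 genes in the value of IL4I1 was not tested.

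The middle steps of branched-chain breakdown fell in 8 of 13 genes, with a median log2 fold change of -0.83, and in 5 without untreated replicate 3. ALDH6A1, the dehydrogenase that turns methylmalonate semialdehyde into propionyl-CoA, had 207, 219 and 177 CPM in normal, 82.8, 45.8 and 62.7 in untreated and 75.1, 64.0 and 101 in SOT libraries. All 6 injured libraries lay below the normal ones, and ALDH6A1 fell by 1.66 ± 0.24 on the log2 scale in untreated folds (adjusted p = 0.00227). IVD, the isovaleryl-CoA dehydrogenase of leucine breakdown, had 130, 107 and 114 CPM in normal and 53.3, 30.4 and 42.1 in untreated libraries (log2 fold change -1.48 ± 0.21, adjusted p = 0.00199). ABAT, the transaminase of GABA and beta-alanine, was low throughout, with 3.58 to 9.39 CPM in normal and 1.63 to 2.12 in untreated libraries. Its log2 fold change of -1.80 (adjusted p = 0.0132) did not pass without untreated replicate 3 (adjusted p = 0.0563). The valine enzymes HIBCH and HIBADH fell by 1.19 and 1.16 on the log2 scale. MCCC1, HSD17B10 and AUH did not pass, with log2 fold changes between -0.23 and 0.11.

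Propionyl-CoA, the product of valine and isoleucine, is carboxylated by PCCA and PCCB and passed to succinyl-CoA by MCEE and the mutase MUT. MUT had 88.8, 82.3 and 90.1 CPM in normal and 56.4, 43.0 and 44.0 in untreated libraries, and fell by 0.86 ± 0.19 on the log2 scale (adjusted p = 0.0103). MCEE, the epimerase, had 14.0, 12 and 14.1 CPM in normal, 10.4, 6.09 and 7.81 in untreated and 11.7, 12.8 and 13.7 in SOT libraries. Untreated libraries of MCEE lay below both other groups, while SOT and normal libraries overlapped. Its fall in untreated folds (log2 fold change -0.72, adjusted p = 0.0255) was lost without normal replicate 1 or 3 or untreated replicate 2 or 3. PCCA and PCCB did not pass, with log2 fold changes of -0.20 and -0.26.

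Of 6 genes of ketone and acetoacetyl-CoA metabolism, 3 fell. ACAT1, the mitochondrial thiolase of ketones and isoleucine, had 168, 184 and 179 CPM in normal, 89.5, 40.5 and 56.9 in untreated and 100, 46.9 and 84.0 in SOT libraries. The untreated and normal groups were separate, and the log2 fold change was -1.51 ± 0.33 (adjusted p = 0.0108). OXCT1, which activates acetoacetate so that ketones can be burned, fell by 0.90 on the log2 scale (adjusted p = 0.0128), a call lost without untreated replicate 2 or 3. HMGCS1, the cytosolic synthase of the sterol pathway, had 186 to 329 CPM in normal and 101 to 118 in untreated libraries (log2 fold change -1.17, adjusted p = 0.00525). The cytosolic thiolase ACAT2 did not pass (log2 fold change -0.09, adjusted p = 0.77).

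**Figure D2:**
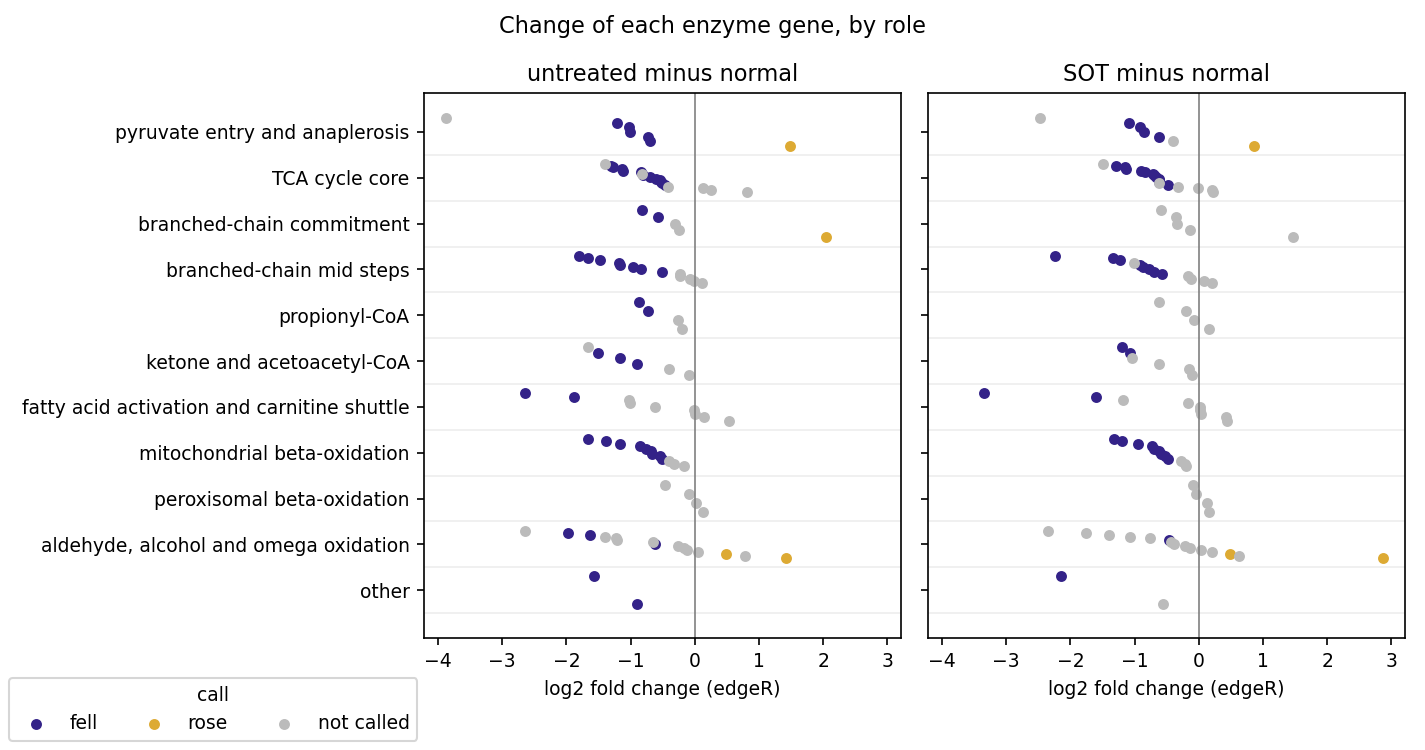
Log2 fold change of each tested enzyme with a gene symbol, by role, in untreated against normal folds (left) and SOT against normal folds (right), which share the normal libraries. Each point is 1 gene, coloured by whether it fell, rose or did not pass at an adjusted p under 0.05. MDH1B, listed at 0 counts in all 3 untreated libraries, is not drawn. In the mitochondrial beta-oxidation group, which includes GCDH, 9 of 12 genes fell in each panel, and in peroxisomal beta-oxidation 0 of 4.

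Of 12 genes grouped with the mitochondrial beta-oxidation spiral, 9 fell, with a median log2 fold change of -0.67 in untreated against normal folds. The group includes GCDH, which is not a step of the spiral. ACADM, the medium-chain acyl-CoA dehydrogenase, had 114, 125 and 98.5 CPM in normal, 42.8, 28.1 and 35.3 in untreated and 52.7, 29.8 and 52.7 in SOT libraries. No injured library reached the normal range, and ACADM fell by 1.67 ± 0.25 on the log2 scale in untreated folds, a level 3.17-fold lower (adjusted p = 0.00232). ECHS1, the short-chain enoyl-CoA hydratase, had 126, 129 and 136 CPM in normal and 69.5, 50.7 and 54.2 in untreated libraries (log2 fold change -1.16 ± 0.16, adjusted p = 0.00195). GCDH, the glutaryl-CoA dehydrogenase of lysine and tryptophan breakdown, had 74.6, 81.1 and 77.2 CPM in normal and 37.8, 21 and 30.8 in untreated libraries. It fell by 1.38 ± 0.23 on the log2 scale (adjusted p = 0.00357). The very-long-chain dehydrogenase ACADVL, which starts the spiral, fell by 0.54 (adjusted p = 0.0144) but did not pass without untreated replicate 2 or 3.

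The trifunctional protein, which takes long-chain intermediates through the remaining steps, did not pass in either subunit. HADHA had 151, 168 and 176 CPM in normal and 140, 128 and 128 in untreated libraries, without overlap (log2 fold change -0.32 ± 0.13, adjusted p = 0.0873). HADHB had 122 to 170 CPM in normal and 99.2 to 108 in untreated libraries (log2 fold change -0.40 ± 0.18, adjusted p = 0.125). The 2 genes are neighbours on opposite strands of chromosome 2 in OryCun2.0, HADHB at chr2:159625039-159662212 and HADHA at chr2:159662417-159713804.

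Of the peroxisomal enzymes, which shorten very-long-chain fatty acids outside the mitochondrion, 0 of 4 passed. ACOX3, ACAA1 and EHHADH had log2 fold changes of -0.09, 0.12 and -0.46. Whether this group differed from the mitochondrial enzymes was not tested.

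Among 9 genes of fatty acid activation and the carnitine shuttle, 2 fell, both of them isoforms of muscle or brain. CPT1B, the muscle isoform that commits long-chain fatty acids to oxidation, had 67.6, 60.8 and 54.6 CPM in normal, 20.7, 12.8 and 16.1 in untreated and 26.2, 12.6 and 21.6 in SOT libraries. All injured libraries lay below the normal ones, and CPT1B fell by 1.88 ± 0.28 on the log2 scale in untreated folds, a level 3.69-fold lower (adjusted p = 0.00237). ACSL6, an acyl-CoA synthetase of brain and muscle, had 46.2, 47.6 and 37.7 CPM in normal, 12.2, 2.02 and 6.91 in untreated and 3.60, 1.1 and 8.29 in SOT libraries. The untreated and normal groups did not overlap, and ACSL6 fell by 2.64 ± 0.77 on the log2 scale in untreated folds (adjusted p = 0.031). That call was lost without any 1 normal library or without untreated replicate 2 or 3, and the log2 fold change was -3.29 without untreated replicate 1. CPT2, the inner-membrane partner of CPT1, did not pass, with 17.0 to 18.7 CPM in normal and 16.8 to 18.2 in untreated libraries (log2 fold change 0.00 ± 0.11).

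Isoforms of 1 enzyme were compared per transcript length, in FPKM. The liver isoform CPT1A was given by 3 loci and the brain isoform CPT1C by 2, and the loci of each were pooled, since they may share reads. CPT1B stood at 37.7, 34.5 and 31.4 FPKM in normal, 11.4, 7.01 and 9.04 in untreated and 15.3, 7.80 and 13.5 in SOT libraries. CPT1A stood at 3.91, 3.98 and 2.87 FPKM in normal, 3.59, 4.82 and 4.29 in untreated and 4.41, 4.61 and 5.48 in SOT libraries. The share of CPT1B in the summed level of the 3 isoforms was 87.6% ± 1.56 (SD, n = 3) in normal, 62.8% ± 8.15 in untreated and 65.1% ± 9.5 in SOT folds. The shares of untreated and normal libraries did not overlap (two-sided exact permutation test, p = 0.1, the smallest that 3 against 3 libraries allow, and 0.375 adjusted over 15 comparisons of isoform shares). No single CPT1A locus passed in untreated against normal folds, with log2 fold changes of 0.35, 0.19 and 0.14.

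**Figure D3:**
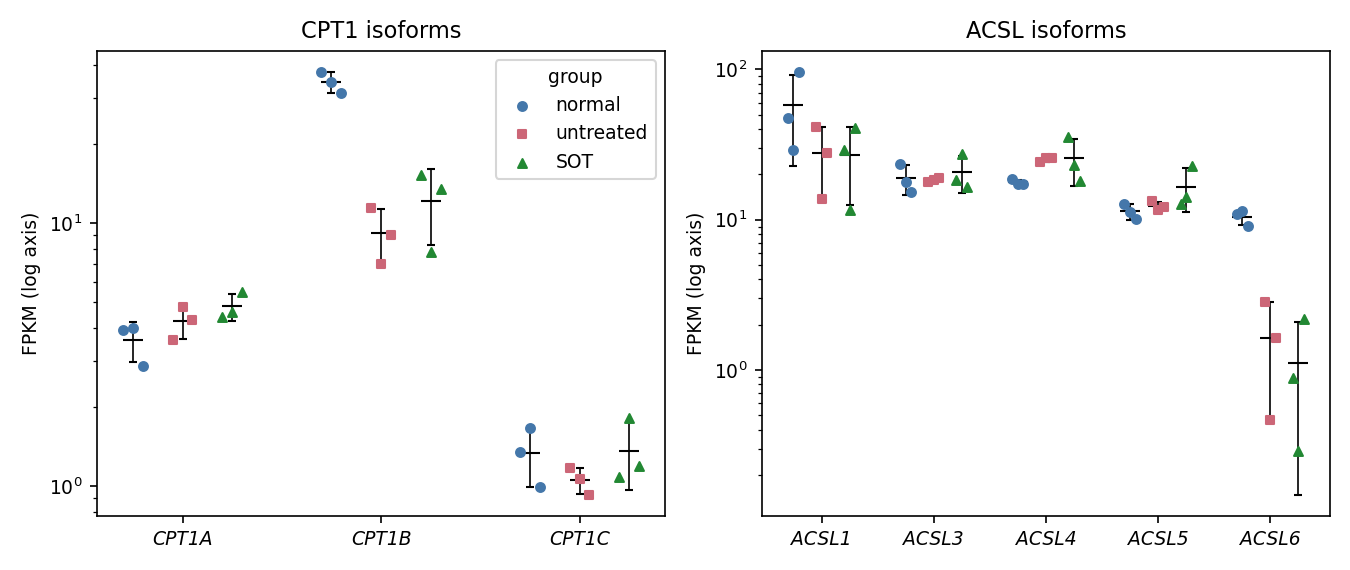
FPKM of the isoforms of CPT1 (left) and of the long-chain acyl-CoA synthetases (right) in each library, on log axes. Points are libraries, 3 per group, and bars give the mean and SD. CPT1B and ACSL6 lay lower in all 6 injured than in all normal libraries, while CPT1A, CPT1C, ACSL3 and ACSL5 overlapped between the untreated and normal groups.

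The other long-chain synthetases did not pass. ACSL1, the main synthetase of fat and muscle, varied within each group, with 47.1, 29.1 and 96.2 FPKM in normal and 41.5, 13.7 and 27.8 in untreated libraries. Its share of the summed ACSL level was 46.8% ± 16.4 (SD, n = 3) in normal and 31.2% ± 11.1 in untreated libraries (two-sided exact permutation test, p = 0.2, adjusted p = 0.5). ACSL4, which favours arachidonate, had 17.3 to 18.6 FPKM in normal and 24.1 to 25.7 in untreated libraries, without overlap (log2 fold change 0.53 ± 0.24 in the count test, adjusted p = 0.116). It passed as higher without SOT replicate 1 or 3. OGDHL, a paralogue of OGDH, made up 2.13% ± 1.12 of their summed FPKM in normal and 1.51% ± 0.450 in untreated libraries (SD, n = 3; exact permutation p = 0.5). PCK1 made up 1.51% ± 0.661 of the PCK level in normal and 0.0326% ± 0.0565 in untreated libraries (exact permutation p = 0.1, adjusted p = 0.375).

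Aldehydes and alcohols enter these annotations through dehydrogenases and oxidases, of which 2 rose and 3 fell among 15. ALDH2, the mitochondrial aldehyde dehydrogenase that clears acetaldehyde and lipid aldehydes, had the highest level per length of the enzymes in normal folds, at 543 ± 97.0 FPKM (SD, n = 3). It had 1295, 1033 and 1468 CPM in normal, 464, 205 and 302 in untreated and 341, 559 and 901 in SOT libraries. The injured libraries all lay below the normal ones, and ALDH2 fell by 1.97 ± 0.40 on the log2 scale in untreated folds, a level 3.91-fold lower (adjusted p = 0.0081). The next levels in normal folds were those of IDH2 (351 ± 13.7 FPKM), MDH2 (292 ± 17.9) and MDH1 (275 ± 18.2), in which MDH2 and MDH1 differed by less than their SD. In untreated folds IDH2 was first, at 157 ± 32.7 FPKM, ahead of ALDH2 at 136 ± 55.1, a gap within their spread.

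The aldehyde oxidase genes AOX1, AOX3, AOX4 and AOX2 lie in this order on chromosome 7 of OryCun2.0, and 2 neighbours moved in opposite directions. AOX3, at chr7:141293821-141423314, had 54.5, 33.5 and 14.0 CPM in normal and 15, 7.72 and 10.3 in untreated libraries. These overlapped, since untreated replicate 1 lay above normal replicate 3, and the log2 fold change of -1.63 ± 0.47 (adjusted p = 0.0313) did not pass without normal replicate 1 or 2 or untreated replicate 2 or 3. AOX4, at chr7:141433603-141487169, had 8.97, 5.92 and 13.8 CPM in normal, 25.9, 25.9 and 25.2 in untreated and 10.2, 16.9 and 17.4 in SOT libraries. The untreated libraries of AOX4 lay above both other groups, and it rose by 1.42 ± 0.31 on the log2 scale against normal (adjusted p = 0.0107). As near copies in tandem, these genes may share reads. ADH5, the glutathione-dependent formaldehyde dehydrogenase, had 64.6, 57.1 and 65.4 CPM in normal and 88.2, 87.8 and 85.5 in untreated libraries. It rose by 0.48 ± 0.11 on the log2 scale (adjusted p = 0.0111), and the calls of AOX4 and ADH5 held in each fit without 1 library.

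Against normal folds, SOT-treated folds also had more members lower than higher. Of 134 members, 41 fell and 3 rose in SOT against normal folds, with a median log2 fold change of -0.42, beside 0.02 over all genes. Of all genes tested 16.7% passed, 9.01% higher and 7.67% lower, and 30.6% of the members fell. This comparison shares the normal libraries with the one above. Citrate cycle core genes fell in 12 of 18 and mitochondrial beta-oxidation genes in 9 of 12. The members of the middle branched-chain steps fell in 8 of 13 and those of pyruvate entry in 4 of 7. The counts were lower with some libraries left out. Without normal replicate 1, 16 members fell, and 22 fell without normal replicate 2 or without SOT replicate 2. Of all genes tested, 1331 fell with all libraries, and 558, 652 and 663 in these fits, in the same order. The member medians in these fits were -0.352, -0.435 and -0.381. Without normal replicate 1 the core citrate cycle count was 6, that of mitochondrial beta-oxidation 4, that of the middle branched-chain steps 3 and that of pyruvate entry 1. Without SOT replicate 2 the first 3 counts were 7, 4 and 5. ECHDC2, an enoyl-CoA hydratase paralogue outside the roles, had 9.13 to 14.6 CPM in normal, 1.85 to 6.84 in untreated and 2.47 to 3.13 in SOT libraries. Its log2 fold change was -2.15 in SOT (adjusted p = 0.0162) and -1.56 in untreated folds (adjusted p = 0.0252). Neither call passed without normal replicate 1 or normal replicate 2, nor the SOT call without SOT replicate 2 (highest adjusted p 0.0515), nor the untreated call without untreated replicate 3. Leaving out untreated replicate 1 took the untreated value to -2.16.

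DLD had 84.8, 60.8 and 86.4 CPM in SOT libraries, all below the normal ones, and fell by 1.08 ± 0.17 on the log2 scale against normal (adjusted p = 0.00787). MDH2, ACADM, CPT1B, IVD and ALDH6A1 fell too, with log2 fold changes of -1.15, -1.32, -1.60, -1.23 and -1.33 against normal. Each of these 6 calls held in all 9 fits without 1 library. ALDH2 did not pass in SOT against normal folds (log2 fold change -1.08 ± 0.39, adjusted p = 0.0949), nor did MCEE (-0.07 ± 0.20, adjusted p = 0.833). PCK2 rose by 0.86 ± 0.17 on the log2 scale (adjusted p = 0.0147), and ADH5 by 0.48 ± 0.11 (adjusted p = 0.0217). ADH2-1, an alcohol dehydrogenase of low level, had 0.669, 0.44 and 0.197 CPM in normal, 0.795, 0.722 and 0.733 in untreated and 1.37, 4.64 and 3.57 in SOT libraries. The SOT libraries of ADH2-1 lay above all others, and it rose by 2.87 ± 0.57 on the log2 scale against normal (adjusted p = 0.0148). The calls of PCK2 and ADH2-1 were lost without normal replicate 2 (adjusted p of 0.0524 and 0.0518), and that of ADH5 without normal replicate 1 or 2 or SOT replicate 2.

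Between SOT-treated and untreated injured folds, 0 of 134 members passed. Of all genes tested, 0.0115% passed, 2 genes, both lower. At an unadjusted p under 0.05 there were 2 members higher and 6 lower, beside 877 and 1317 of all genes. DESeq2 called 2 members, ADH2-1 as higher (adjusted p = 0.012) and PCK2 as lower (adjusted p = 0.0345), and 682 of all genes. Without SOT replicate 1, edgeR called ADH2-1 as higher (adjusted p = 0.0459) and LOC100346169, described as a succinate dehydrogenase copy, as lower (adjusted p = 0.011), and 397 of all genes. The median log2 fold change was 0.09 over the members and 0.01 over all genes.

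The members with the smallest p in each direction were ADH2-1, MCEE and MDH1B on the higher side and PCK2, FHOD1 and SUCLA2 on the lower. ADH2-1 had a log2 fold change of 2.09 in SOT against untreated folds (95% interval 0.83 to 3.34, adjusted p = 0.211). MCEE had 0.65 (0.19 to 1.11, adjusted p = 0.262), with each SOT library above each untreated one. MDH1B, a malate dehydrogenase paralogue, was at 0 in all untreated libraries and at 0, 0.505 and 0.186 CPM in SOT libraries. PCK2 had -0.63 (-1.01 to -0.24, adjusted p = 0.223), FHOD1, an actin-regulating formin, -0.67 (-1.09 to -0.24, adjusted p = 0.23) and SUCLA2 -0.38 (-0.71 to -0.05, adjusted p = 0.331). The SOT libraries of PCK2, FHOD1 and SUCLA2 lay at 25.9 to 39.0, 30.3 to 47.9 and 62.6 to 89.6 CPM, each below the untreated range.

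For the 51 members that fell in untreated folds, the interval of the SOT to untreated difference included 0 in 49. The median distance from the estimate to an end of these intervals was 0.43 on the log2 scale, beside a median change of -0.90 for these members in untreated against normal folds. MDH2 had an interval of -0.32 to 0.64, ACADM of -0.20 to 0.90, CPT1B of -0.34 to 0.91, IVD of -0.22 to 0.72 and CS of -0.26 to 0.32. ALDH2 had 0.89 (-0.01 to 1.79, adjusted p = 0.397), with SOT replicate 3 at 901 CPM and SOT replicate 1 at 341, inside the untreated range. Differences within these intervals were not detectable with 3 libraries a group.

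The fallen members were not evenly low within the injured groups. Untreated replicate 2 held the lowest untreated value in 41 of the 51, and SOT replicate 2 the lowest SOT value in 40. The same count over all genes was not made, so whether this is particular to the members is not known. The 99 enzymes with a symbol summed to 12230, 11600 and 12560 CPM in normal, 8077, 6298 and 6942 in untreated and 7883, 6718 and 8679 in SOT libraries. Skeletal muscle markers summed to 10270, 1071 and 4334 CPM in untreated and 11690, 2148 and 10400 in SOT libraries, lowest in the same 2 libraries. Of these 17 genes, 11 fell in untreated against normal folds (1 to 3 when any normal library or untreated replicate 2 or 3 was left out), and none was at 0 in an untreated library. Other tissue markers moved too. Of 12 cartilage genes 10 fell, from a sum of 2749 to 5736 CPM in normal to 287 to 406 in untreated and 246 to 713 in SOT libraries. Among the untreated libraries, COL9A1 was at 0 in replicate 3 only. Of 4 nerve genes 3 fell, with sums of 277 to 587, 20.9 to 36 and 18.4 to 58.3 CPM in normal, untreated and SOT libraries. Of 5 fibroblast genes 3 rose and 1 fell (0 fell without normal replicate 1 or 2 or any 1 untreated library), with sums of 8243 to 9904, 29230 to 30170 and 12680 to 25690 CPM, and of 4 endothelial genes 3 rose, with sums of 302 to 552, 1151 to 1304 and 459 to 1407 CPM. Of 8 adipocyte genes tested, ADIPOQ and DGAT2 rose and LPL, LIPE and LEP fell. The 9 in the table summed to 420 to 511, 709 to 732 and 339 to 784 CPM in normal, untreated and SOT libraries. The rise of DGAT2 was lost when any 1 normal or untreated library was left out. LEP was near the floor, with 1.38, 0.242 and 0.131 CPM in normal libraries and 0 in each untreated library. Of 9 airway gland and ciliated genes 1 fell and 0 rose. Of 6 stratified epithelium genes 2 fell and 1 rose, with KRT15 lost without untreated replicate 2 or 3. The parts of muscle and of these other tissues in the fall of the enzymes were not tested. With both injured libraries numbered 2 left out, an alternative chosen after seeing the data, 36 members fell and 4 rose in untreated against normal folds, and 22 fell and 0 rose in SOT against normal folds. The counts over all genes dropped in that fit too. In untreated against normal folds 3796 genes passed in either direction, beside 5692 with all libraries. In SOT against normal folds 757 genes fell, beside 1331 with all libraries. Setting aside CPT1B and ACSL6, the 2 called genes of muscle-type isoforms, leaves 49 of 132 members fallen in untreated folds. This count follows from the subtraction alone and does not test the part of muscle.

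**Figure D4:**
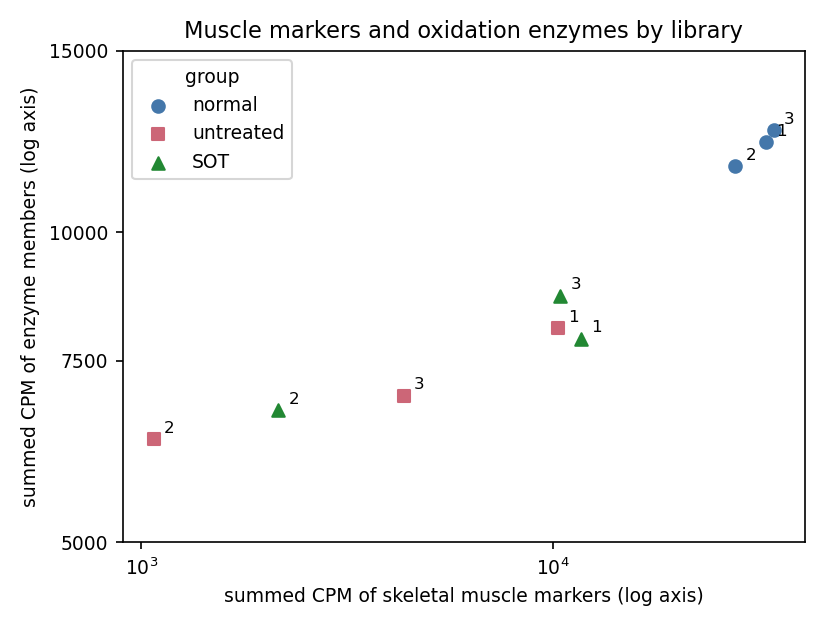
Summed CPM of the 99 enzymes with a gene symbol against summed CPM of 17 skeletal muscle markers, 1 point per library, numbered by replicate, on log axes. Normal libraries sit at 11600 to 12560 CPM of the enzymes, and untreated and SOT replicates 2 are the lowest of their groups on both axes.

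Mitochondrial genes outside these pathways were read beside the members. Import channels, porins, chaperones and similar genes of 14 in the table summed to 2006 to 2287 CPM in normal, 1458 to 1633 in untreated and 1368 to 1896 in SOT libraries. In untreated against normal folds 7 of the 14 fell and 0 rose, with a median log2 fold change of -0.40, and 2 to 3 fell without normal replicate 1 or 3 or untreated replicate 2 or 3. The part of mitochondrial content in the members' values was not tested.

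Genes that serve these pathways but are not among the members were read in 7 lists. Of 14 regulators, 7 fell and 1 rose in untreated against normal folds. Without normal replicate 1 or 3 or untreated replicate 2 or 3, 4 fell. The fallen included SIRT3 and SIRT5, which are mitochondrial deacylases and not transcription factors (log2 fold changes -0.85 and -0.97). The largest changes were in ESRRB, an oestrogen-related receptor (log2 fold change -2.63, adjusted p = 0.0386), and KLF15, a factor of muscle amino acid and lipid use (-2.23, adjusted p = 0.0342), and neither passed without any 1 normal library or untreated replicate 2 or 3. PPARGC1A, the coactivator of mitochondrial biogenesis, had 33.6, 30.0 and 23.5 CPM in normal, 11.9, 5.45 and 5.30 in untreated and 21.4, 10.5 and 17.3 in SOT libraries. It was lower in all untreated than in all normal libraries (log2 fold change -1.94 ± 0.38, adjusted p = 0.00677) and did not pass in SOT against untreated folds (1.12 ± 0.37, adjusted p = 0.287). PPARA, the receptor that drives fatty acid oxidation genes, fell by 1.19 on the log2 scale (adjusted p = 0.00304), while PPARD rose by 0.61 (adjusted p = 0.0364, lost without normal replicate 1 or 2 or untreated replicate 2 or 3). In SOT against normal folds 2 of the 14 fell.

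Kinases and phosphatases set the activity of the pyruvate and branched-chain complexes, and 6 of 9 fell and 1 rose in untreated folds. PDK2 and PDK1, kinases that switch pyruvate dehydrogenase off, fell by 1.29 and 1.24 on the log2 scale (adjusted p of 0.00813 and 0.00952), while PDK3 rose by 0.84 (adjusted p = 0.0352, lost also without normal replicate 1). Without normal replicate 2 or untreated replicate 2 or 3, 3 of the 9 fell and 0 rose. PDK4, the isoform induced by fasting, did not pass, with 41.1 to 59.5 CPM in normal and 20.1 to 29.6 in untreated libraries (adjusted p = 0.0751).

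Of 10 carriers, mitochondrial except for the plasma membrane transporter SLC16A1, 4 fell and 1 rose. MPC1, a subunit of the pyruvate carrier, had 136, 136 and 123 CPM in normal and 58.3, 40.9 and 43.8 in untreated libraries (log2 fold change -1.47 ± 0.19, adjusted p = 0.00158). The aspartate-glutamate carriers moved apart: SLC25A12, the muscle and brain form, fell by 1.61 on the log2 scale (adjusted p = 0.00308) and SLC25A13, the liver form, rose by 0.67 (adjusted p = 0.00612). SLC25A20, the carnitine-acylcarnitine carrier between CPT1 and CPT2, did not pass (-0.05 ± 0.23, adjusted p = 0.903).

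Of 11 electron transfer and auxiliary beta-oxidation enzymes 8 fell, among them the thioesterase ACOT13 (log2 fold change -1.98, adjusted p = 0.00413) and the carnitine acetyltransferase CRAT (-1.31, adjusted p = 0.00634). This count was 5 without normal replicate 3 or untreated replicate 2 or 3. Of 8 genes of fatty acid uptake and release 3 fell, including the muscle fatty acid binding protein FABP3 (-2.59, adjusted p = 0.0044) and the lipoprotein lipase LPL (-1.79, adjusted p = 0.00098). Of 5 fatty acid synthesis genes 2 fell: the malic enzyme ME1 (-1.91, adjusted p = 0.00514) and ACACB, the carboxylase whose malonyl-CoA restrains CPT1 (-1.46, adjusted p = 0.0279). Without normal replicate 1 or untreated replicate 2 or 3, only ME1 of these fell. Of 9 genes of lipoylation and iron-sulphur supply 3 fell, among them LIAS, the lipoyl synthase, at -0.87 (adjusted p = 0.00211). In SOT against untreated folds 0 genes of these 7 lists passed.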

How the data were processed

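Reads were processed by the authors with cutadapt 1.9, HISAT2 2.0.4, StringTie 1.3.4d and edgeR, with OryCun2.0 as the genome build, as the submitters' processing notes list them. What each tool did, the strandedness and the handling of shared reads are not stated there. The deposited table gives whole-number read counts and FPKM values for 20525 genes in 9 libraries, per the file headers. Counts were fitted in R 4.3.3 with edgeR 4.0.16 (filterByExpr by group, TMM, quasi-likelihood test, 1 mean per group, all 9 libraries), with Benjamini-Hochberg adjustment over 17344 genes and a threshold of 0.05. Deposited FPKM values were used for levels between genes and isoform shares. For CPT1A and CPT1C, which had no row under their symbols, summed counts of the loci described as those isoforms were divided by the sum of count over FPKM.

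Alternatives were RLE scaling, no filter on low counts, DESeq2 1.42.0, limma 3.58.1 on log2(FPKM + 0.1) for genes with FPKM of at least 0.5 in 3 libraries, a replicate block, and each library left out. The fitting was tested on simulated data.

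Members, roles and gene lists were chosen with earlier results of these data known. Named genes are, per role, the 3 with the largest called change in untreated against normal folds, CS, OGDH, BCKDHA, CPT1A, CPT1B, ACADM and HADHA, all members that rose, the 3 with the smallest p per direction in SOT against untreated folds, the isoform sets, and the 2 largest called changes per related list; further genes were named after their values were seen, and a few genes under the rule are not reported here. PDHX, ECHDC2 and MDH1B fell in no fixed role. The 2 members at 0 in a whole group (MDH1B and LOC103349497) have no stated fold; with them at the bound of 3 counts per library the member medians were -0.51, 0.09 and -0.42. The levels of libraries within a group differed by more than sampling noise. The 95% intervals of fold changes come from the quasi-likelihood fit and include the spread between libraries, whereas floors of 3 counts cover counting error only.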

Additional observations from a re-analysis of the deposited data

How the results depend on the processing

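In untreated against normal folds, 55 members passed, and between 53 and 64 under RLE scaling, no filter, DESeq2, limma and the replicate block. Without both injured libraries numbered 2, 40 members passed, and 35 to 61 without single libraries. All genes gave 5692, with 3796 without both libraries numbered 2 and 3145 to 6026 without single libraries. In SOT against normal folds, 44 members passed, 22 without both libraries numbered 2 and 18 to 41 without single libraries; all genes gave 2894, with 4819 by DESeq2, 1531 without both libraries numbered 2 and 1135 to 3222 without single libraries. In SOT against untreated folds, all genes gave 2, with 682 by DESeq2, 0 by limma, 0 under the replicate block, 0 without both libraries numbered 2 and 0 to 397 without single libraries; members gave 0, with 2 by DESeq2 and 0 to 2 without single libraries. The causes were not tested. With the replicate number as a block, 57 and 46 members passed against normal folds. Over 9 same-number pairs the correlation of deviations from group means was -0.048 to 0.267, the highest between untreated replicate 2 and SOT replicate 2. Over pairs of unlike number it was -0.276 to 0.174. The labels do not say that equal numbers mark a pair, so the main fit took none, and these values do not settle whether libraries were paired. Genes near no change reversed: ACSL3 in untreated against normal folds (0.0167 under the block, -0.15 to 0.20 without single libraries), LOC100341327 (-0.37 to 0.24), LOC100344635 (-0.588 to 0.0284) and LOC103346593 (-0.0654 to 0.253, and -2.7e-05 without both libraries numbered 2). Isoform shares between SOT and untreated folds ranged without single libraries from -1.88 to 7.49 percentage points for CPT1B, -8.51 to 4.16 for ACSL1, -0.523 to 0.0657 for OGDHL and -0.0326 to 0.158 for PCK1, and BCAT1 in SOT against normal folds from -0.0231 to 0.0502. In SOT against normal folds ACSL6 moved from -3.34 to -4.20 without SOT replicate 3, and LOC100346169 from -1.23 to -1.83 without SOT replicate 1. Depth limits IL4I1, PCK1, BCAT1, MDH1B, ADH2-1 and the adipocyte marker LEP, all at a few CPM or less.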

Other observations

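Enzyme pairs with a mitochondrial and a cytosolic member were compared by their FPKM ratio, a choice made after their values were seen. IDH2 to IDH1 was 4.98, 6.30 and 4.43 in normal, 2.49, 1.67 and 2.22 in untreated and 3.26, 1.51 and 2.46 in SOT libraries. ACAT1 to ACAT2 was 2.64, 2.94 and 1.63 in normal, 1.20, 0.579 and 0.738 in untreated and 1.33, 0.699 and 1.09 in SOT libraries. In these pairs each injured library had a lower ratio than each normal one. MDH2 to MDH1, whose members both fell, was 1.07 ± 0.0838 in normal, 0.928 ± 0.0257 in untreated and 0.900 ± 0.189 in SOT libraries (SD, n = 3). In untreated against normal folds each pair had a two-sided exact permutation p of 0.1, the smallest that 3 against 3 libraries allow (0.171 adjusted over 12 comparisons). In SOT against untreated folds the exact p was 0.5 to 0.8.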
